A study of Homo sapiens with 6 samples.

Results

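FAM111A and FAM111B are a pair of related protease genes that lie next to each other on the long arm of human chromosome 11, and their RNA was followed in cells with and without the histone methyltransferase MLL4. The 2 genes were taken by symbol from a deposited table of 59715 genes. The pair was chosen by the counts of these same 6 libraries, in which FAM111A was already known to be among the larger differences, so their levels are given as a description and without a test. The groups were 3 libraries labelled MLL4KO and 3 labelled MLL4WT, all from the established colorectal cancer cell line HCT116, of human origin. MLL4KO cells carry a knockout of MLL4, an enzyme that methylates histone H3 at lysine 4 and usually means KMT2D in human cells, and MLL4WT cells are their wild-type counterpart. Both were grown in the same serum-containing medium, and the labels name no treatment. Nor do they say whether a genotype was 1 clone or whether its 3 libraries came from separate cultures, and the p-values below then measure only the spread between these libraries, which may be technical.

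Both proteins end in a trypsin-like serine protease domain. FAM111A binds PCNA, the sliding clamp of DNA replication, travels with replication forks and helps to remove protein obstacles such as trapped topoisomerase 1 or PARP1 from the DNA, and it also restricts the growth of some viruses. Too much active FAM111A damages the nuclear pore and is toxic to cells, and mutations in the gene cause Kenny-Caffey syndrome. FAM111B is mutated in hereditary fibrosing poikiloderma, and in cycling cells the RNA of both genes is known to be most abundant around S phase.

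Library totals ranged from 14775580 to 19736751 counts in MLL4KO and from 6829400 to 17828774 in MLL4WT, where replicate 1 was the shallowest. MLL4WT replicate 1 also stood apart in its counts, a chi-square test against the other MLL4WT libraries giving 7.49 and 7.36 times its degrees of freedom, while every other pair of one genotype gave between 1.85 and 2.46. KMT2D itself was read at 230, 243 and 225 CPM, counts scaled to a common library size, in MLL4KO and 240, 231 and 234 CPM in MLL4WT. Where in the gene the knockout lies is not stated in the labels, and a whole-gene count can miss it, so KMT2D RNA is no check of the genotype. Markers of intestinal epithelium summed to between 1102 and 1125 CPM in MLL4KO and between 1640 and 1694 CPM in MLL4WT, with EPCAM, CDH1, KRT8, KRT18, KRT19 and CLDN4 all above 10 CPM in both and VIL1 at 0.194 and 0.667 CPM. Of the 6 epithelial markers tested, 5 fell and 1 did not pass, or 83.3% fallen beside 21.6% of all tested genes. Their median log2 difference (MLL4KO over MLL4WT) was -0.41. Marker genes of blood, endothelial, liver, glial, muscle and stromal cells summed to between 2.64 and 4.32 CPM in MLL4KO and between 9.76 and 10.3 CPM in MLL4WT, CD3E being at 0 in MLL4KO. Of these, COL3A1 fell (0.776 CPM in MLL4KO, 5.22 CPM in MLL4WT) and DES fell (0.900 CPM in MLL4KO, 3.20 CPM in MLL4WT), while PECAM1 was at 0.971 CPM in MLL4KO and 0.584 CPM in MLL4WT and did not pass the test. The part of these marker shifts in the results below was not tested.

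FAM111B (ENSG00000189057) occupies bases 59107185 to 59127410 of chromosome 11 on GRCh38 with GENCODE release 29, and FAM111A (ENSG00000166801) bases 59142748 to 59155039, both on the plus strand with 15337 bases between them. A long noncoding RNA gene on the minus strand, FAM111A-DT, starts inside FAM111A and runs back into that gap, overlapping FAM111A by 268 bases. RefSeq gives FAM111A 2 transcript starts 2006 bases apart, and the counts are per gene, so they do not show which start was used. The 250 bases before each start are shown because they are the upstream promoter windows of the gene with the higher level (RefSeq, GRCh38.p14, plus strand, chr11:59142606-59142855 and chr11:59144612-59144861), with capitals marking the motifs searched for.
First start: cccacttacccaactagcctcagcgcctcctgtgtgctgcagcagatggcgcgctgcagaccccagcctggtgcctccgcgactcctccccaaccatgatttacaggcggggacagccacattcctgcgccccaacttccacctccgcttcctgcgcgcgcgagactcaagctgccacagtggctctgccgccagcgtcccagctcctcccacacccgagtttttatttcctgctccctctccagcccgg
Second start: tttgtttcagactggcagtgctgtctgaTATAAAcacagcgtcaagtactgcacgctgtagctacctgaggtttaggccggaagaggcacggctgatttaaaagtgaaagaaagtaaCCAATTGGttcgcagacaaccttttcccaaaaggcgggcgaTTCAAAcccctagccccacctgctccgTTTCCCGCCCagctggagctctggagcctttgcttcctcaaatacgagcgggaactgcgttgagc
The motifs were the E2F sites TTTCCCGC and TTTGGCGC, the cell cycle element TTTGAA, the CCAAT box, the TATA box as TATAAA, the GC box as GGGCGG and the core of the interferon response element as 2 GAAA words with any 2 bases between, all searched on both strands and chosen after the sequence was seen. The first window held none of them. The second held TTTCCCGC, whose first base lies 65 bases before the start and which 1.39% of the 35116 RefSeq promoter windows of that length also hold. It also held TTTGAA on the minus strand (13.3% of windows), CCAAT on both strands in overlapping copies (32.0%), TATAAA far upstream at 222 bases (10.7%) and a GC box that overlaps the E2F letters (42.6%). TTTGGCGC, which 0.550% of windows hold, and the interferon core, which 3.02% hold, were in neither window. A match of letters is not a bound site.

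FAM111A was low in the wild-type cells and several times higher in the knockout. Its estimated counts were 321, 239 and 240 in MLL4KO replicates 1 to 3, against 17, 47 and 67 in MLL4WT replicates 1 to 3. After scaling these were 16.0, 14.7 and 16.0 CPM in MLL4KO, against 2.53, 3.22 and 3.85 CPM in MLL4WT. Every MLL4KO library stood far above every MLL4WT library, and the groups did not overlap, as was the case for 52.5% of the 14543 genes tested, 41.4% of which passed the test between the genotypes described below. The means were 15.5 ± 0.712 CPM in MLL4KO and 3.20 ± 0.661 CPM in MLL4WT (SD, n = 3 each). The fold fitted by edgeR, which is not the plain ratio of these means, was 4.64, or 2.21 ± 0.14 on the log2 scale (MLL4KO over MLL4WT, SE). These are bulk libraries, in which more cells with the RNA and more RNA per cell cannot be told apart.

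The MLL4WT libraries spread more than the MLL4KO libraries, with an SD of log2 CPM of 0.0670 in MLL4KO and 0.305 in MLL4WT. The exact 95% Poisson interval of the lowest MLL4WT library, 1.47 to 4.04 CPM, overlapped that of the highest, 2.98 to 4.89 CPM, and the 3 MLL4KO intervals lay between 12.9 and 18.1 CPM. Such intervals cover counting error only. The column names carry sequencing codes, of which MLL4WT replicate 1 had one to itself. Under the code shared by MLL4KO replicate 1 and MLL4WT replicate 3 the ratio was 4.15, and under that of MLL4KO replicates 2 and 3 and MLL4WT replicate 2 it was 4.76. Leaving out MLL4WT replicate 1 gave a log2 difference of 2.13.

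**Figure D1:**
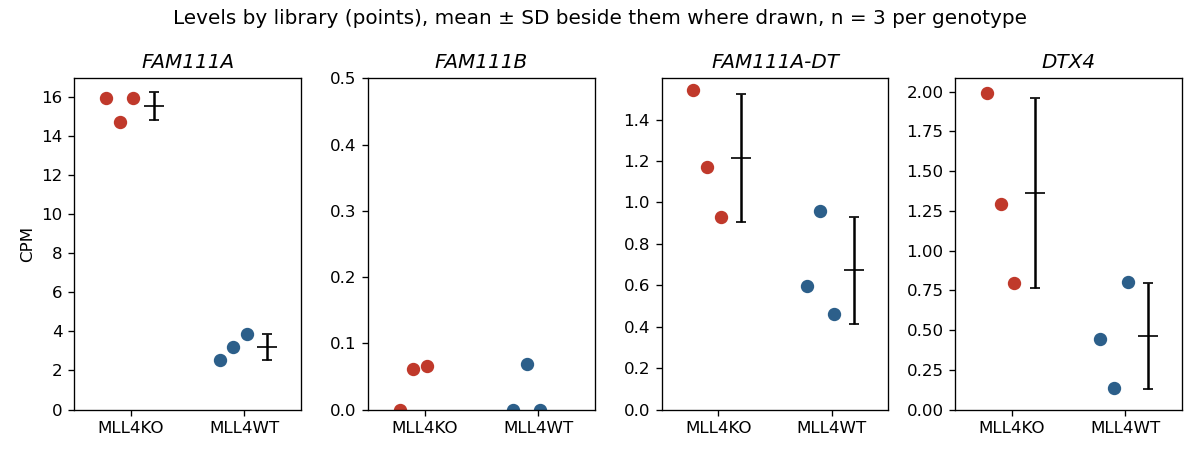
CPM of FAM111A, FAM111B, the divergent noncoding RNA FAM111A-DT and the neighbour DTX4 in each MLL4KO (red, left) and MLL4WT (blue, right) library, with mean ± SD beside the points (n = 3 per genotype; none drawn for FAM111B) and a different linear scale in each panel. FAM111A lies between 14.7 and 16.0 CPM in MLL4KO and between 2.53 and 3.85 CPM in MLL4WT, while FAM111B is near 0 in both.

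By rank, FAM111A stood higher among the expressed genes in MLL4KO. In MLL4KO 38.7% of the 14543 tested genes had a lower mean CPM, against 18.7% in MLL4WT, so it was below the median gene in both. Its log2 difference was the 39th highest of all tested genes, whose median was -0.0044. Among the 11433 genes that reached 5 CPM in at least 1 genotype it was the 10th highest. FAM111A reached 5 CPM in MLL4KO alone (15.5 CPM, against 3.20 CPM in MLL4WT), so it entered this ranking only through its level there. Both ranks describe a gene chosen by these same counts. With TMM scaling 2885 genes rose and 3136 fell, and scaling by total counts gave 3706 that rose and 2394 that fell (edgeR quasi-likelihood test, adjusted p under 0.05).

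**Figure D2:**
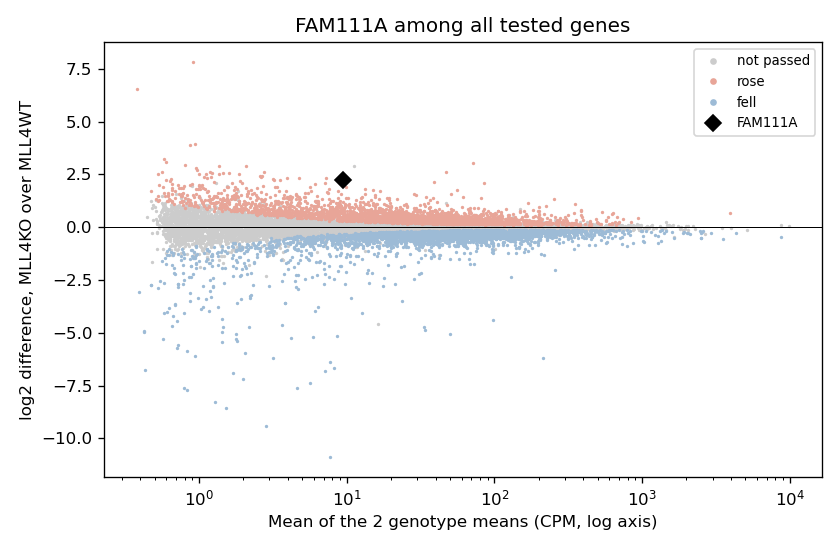
Difference between genotypes (log2, MLL4KO over MLL4WT) against mean level (CPM, log axis) for 14543 tested genes, coloured by whether they rose, fell or did not pass the edgeR test. FAM111A (black diamond) lies at 2.21, well above the bulk of genes of its level.

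FAM111B was all but unread in both genotypes. It had 0, 1 and 1 counts in MLL4KO replicates 1 to 3, against 0, 1 and 0 in MLL4WT replicates 1 to 3, or 3 counts among the 90043353 of all 6 libraries. The libraries with a count of 0 allow up to 0.149 CPM in MLL4KO replicate 1, 0.446 CPM in MLL4WT replicate 1 and 0.172 CPM in MLL4WT replicate 3, taking 3 counts as the limit. It did not pass the filter on low counts, no fold between genotypes can be given, and a difference was not detectable at this depth. Of 19617 protein-coding genes in the table, 22.5% had no more counts than this, and 2858 had none.

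Set side by side per length of merged exons (7221 bases for FAM111A, 3863 for FAM111B), the levels of the 2 genes were far apart. In MLL4KO, FAM111A stood at 2.15 ± 0.0986 CPM per kb and FAM111B at 0.0111 ± 0.00959. In MLL4WT, FAM111A stood at 0.443 ± 0.0916 CPM per kb and FAM111B at 0.00592 ± 0.0103 (SD, n = 3 each). The ratio of the summed counts per length, FAM111A over FAM111B, was 214 in MLL4KO (exact 95% interval 59.0 to 1770) and 70.1 in MLL4WT (12.4 to 2789), and the intervals overlapped. They cover counting error only and not the spread between libraries. With 2 and 1 counts of FAM111B they are too wide to compare the genotypes. Between the GENCODE transcripts of the paralogs, 0 of the 7405 different 31-base words of FAM111A and 0 of the 3886 of FAM111B were shared. With any other gene FAM111A shared 2.39% of its words, 71 of them with FAM111A-DT.

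The region around the pair was mostly silent, and 1 of the 12 other genes tested there rose, a share below that of all tested genes. Within 1 Mb the table held 89 other genes, of which 64 had 0 counts in every library, among them all 36 olfactory receptor genes and pseudogenes of the stretch. The 12 with enough counts were tested, and 1 rose and 2 fell, or 8.33% and 16.7%, where 19.8% of all tested genes rose and 21.6% fell. In 5 of the 12 the groups did not overlap, beside 52.5% of all tested genes. The median log2 difference of the 12 was -0.01, beside -0.06 for the 797 tested genes of chromosome 11.

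DTX4, which encodes a ubiquitin ligase linked to Notch signalling, starts 16.4 kb beyond the end of FAM111A (chromosome 11, 59171430 to 59208587). It had 40, 21 and 12 counts in MLL4KO replicates 1 to 3, against 3, 2 and 14 in MLL4WT replicates 1 to 3. That is 1.36 ± 0.599 CPM in MLL4KO and 0.462 ± 0.334 CPM in MLL4WT (SD, n = 3 each), and the lowest MLL4KO library lay just under the highest MLL4WT library. DTX4 rose 2.84-fold (log2 1.51 ± 0.53, edgeR adjusted p = 0.0386). The call was lost with the DESeq2 Wald test (adjusted p = 0.0545) and with the replicate number as a block (edgeR adjusted p = 0.0738). It was also lost without MLL4KO replicate 1 (edgeR adjusted p = 0.192, log2 1.12) or 2 (0.0897, log2 1.56), and without MLL4WT replicate 2 (0.149, log2 1.02). Without MLL4WT replicate 3 the log2 difference of DTX4 was 2.49. Over the 14 alternatives with a value its adjusted p ran between 0.00173 and 0.192.

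FAM111A-DT had 31, 19 and 14 counts in MLL4KO replicates 1 to 3, against 4, 14 and 8 in MLL4WT replicates 1 to 3. This is 1.21 ± 0.308 CPM in MLL4KO and 0.671 ± 0.259 CPM in MLL4WT (SD, n = 3 each), a log2 difference of 0.86 ± 0.38 that did not pass the test (edgeR adjusted p = 0.0941) and whose groups overlapped. The library kit is not stated to keep strand, so reads from the overlap with FAM111A cannot be assigned to one of them. On the far side of FAM111B, 63.7 kb away, GLYATL1, of the glycine acyltransferase family, had 0 counts over the MLL4KO libraries and 9 over the MLL4WT libraries. Taking 3 counts as the limit for the MLL4KO group and the 9 MLL4WT counts as exact, it was 3.98-fold lower or more in MLL4KO. Counting error in those 9 counts is not covered, so the true fold may be smaller. GLYATL1 was too low to be tested and is named after its values were seen. Untested genes that overlap it differed in direction. The pseudogene GLYATL1P1 inside its span had 4 counts in MLL4KO and 0 in MLL4WT, and an antisense gene had 6 and 1. Another pseudogene there had 0 and 1. Reads from such overlaps cannot be assigned without strand.

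Farther out TCN1 and FABP5P7 fell, and the other tested genes did not pass. OSBP, the oxysterol-binding protein gene, PATL1, of mRNA decapping, the syntaxin gene STX3, the mitochondrial ribosomal protein gene MRPL16 and ZFP91, a zinc finger ubiquitin ligase gene, had levels between 41.2 and 175 CPM in MLL4KO. Their log2 differences lay between -0.13 and 0.11, and none passed the test (edgeR adjusted p between 0.0588 and 0.620). ZFP91 did pass in 6 of 16 alternatives. Among them were scaling by total counts (edgeR adjusted p = 0.00679), the filter of 1 CPM (edgeR adjusted p = 0.0410) and leaving out MLL4WT replicate 1. MRPL16 passed without MLL4WT replicate 1 and with the sequencing code as a term. CNTF, a neurotrophic factor gene, its read-through ZFP91-CNTF, which shares exons with both, and LPXN, an adhesion adaptor gene, were at 2.13 CPM or less in MLL4KO and did not pass either (log2 0.49, 0.35 and -0.16). Without MLL4WT replicate 3 the value was -0.43 for ZFP91-CNTF and 0.06 for LPXN, and ZFP91-CNTF reached 0.93 without MLL4WT replicate 2, so neither has a settled direction. TCN1, which encodes a vitamin B12 carrier and lies 698 kb away, fell 7.17-fold, with 0.348, 0.246 and 0.332 CPM in MLL4KO replicates 1 to 3 against 1.34, 2.61 and 2.58 CPM in MLL4WT replicates 1 to 3 (log2 -2.84 ± 0.38, edgeR adjusted p = 9.11e-05). FABP5P7, a processed pseudogene whose reads may belong to other copies of FABP5, fell by 0.50 ± 0.10 on the log2 scale (edgeR adjusted p = 0.00199).

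**Figure D3:**
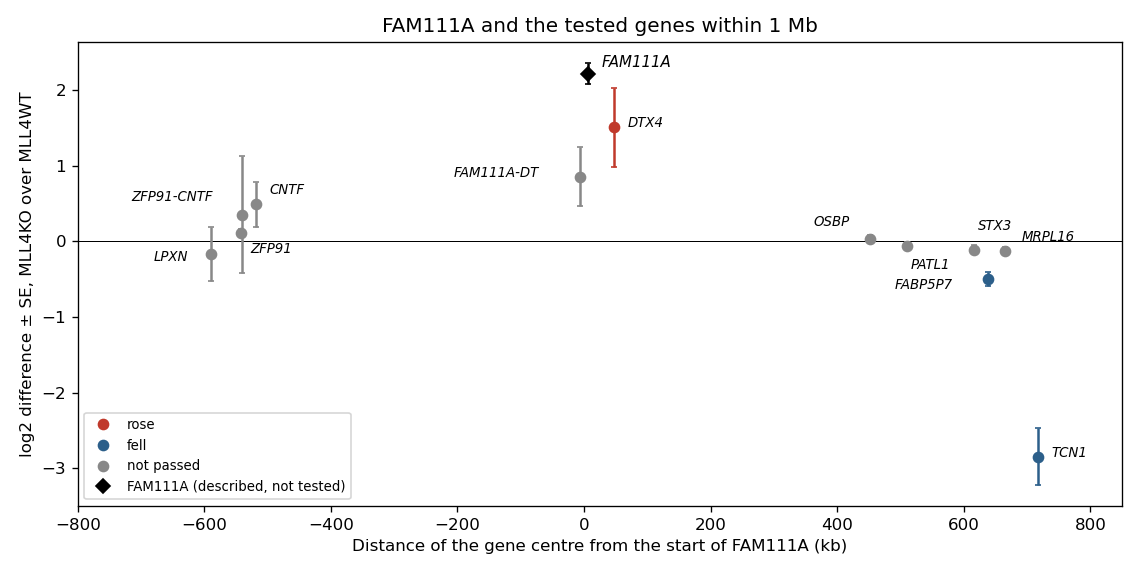
Log2 difference ± SE (MLL4KO over MLL4WT) of FAM111A and of the 12 tested genes within 1 Mb, against the distance of each gene's centre from the start of FAM111A in kb. FAM111A lies at 2.21, its near neighbours DTX4 at 1.51 and FAM111A-DT at 0.86, and TCN1, far to the right, at -2.84.

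PCNA, the clamp that FAM111A binds, was at 298, 300.3 and 306 CPM in MLL4KO replicates 1 to 3, against 270, 285 and 285 CPM in MLL4WT replicates 1 to 3. Its groups did not overlap, but the difference was 1.07-fold and did not pass the test (log2 0.10 ± 0.04, edgeR adjusted p = 0.0715), though it did with total counts alone (log2 0.17, adjusted p = 0.00622) and without MLL4WT replicate 1 (log2 0.09, adjusted p = 0.0110), the alternatives giving adjusted p between 0.00622 and 0.648. RFC1, the large subunit of the clamp loader and a factor linked to FAM111A in virus restriction, rose 1.15-fold, with 139.9 ± 3.91 CPM in MLL4KO and 120.5 ± 9.10 CPM in MLL4WT (SD, n = 3 each; edgeR adjusted p = 0.0120), a call lost without MLL4KO replicate 2 (adjusted p = 0.0505, the highest of 16 alternatives, the lowest being 0.000764).

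Of 35 genes of the PCNA clamp, its loaders and its partners, all tested, 4 rose, 15 fell and 16 did not pass, or 11.4% and 42.9% where 19.8% and 21.6% of all tested genes did so. The median log2 difference was -0.13, beside -0.0044 for all tested genes, and none was 2-fold higher. Scaling by total counts gave 6 that rose and 10 that fell. HLTF, a helicase-like ubiquitin ligase that modifies PCNA, rose 1.52-fold, and CHAF1B, a chromatin assembly subunit on chromosome 21, rose 1.27-fold (edgeR adjusted p = 3.91e-06 and 0.000245). POLD1, the catalytic subunit of DNA polymerase delta, fell 1.29-fold, DSCC1, an alternative loader subunit on chromosome 8, fell 1.32-fold, and the origin licensing gene CDT1 fell 1.49-fold (edgeR adjusted p between 0.000145 and 0.000385). Without MLL4KO replicate 2 the counts were 2 and 10, where 2163 rose and 2316 fell of all 14777 genes tested then.

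S phase genes, the group with which FAM111A and FAM111B usually cycle, fell more often than they rose. Of 43 genes, all tested and 11 of them also in the PCNA list, 4 rose, 22 fell and 17 did not pass, or 9.30% and 51.2%, beside 19.8% and 21.6% of all tested genes. The median log2 difference was -0.14. ATAD2, a chromatin ATPase gene on chromosome 8, fell to 31.4 ± 1.26 CPM in MLL4KO, against 104.8 ± 9.75 CPM in MLL4WT (SD, n = 3 each; 3.36-fold, edgeR adjusted p = 6.79e-09). The ribonucleotide reductase subunit gene RRM2 fell 1.48-fold and the helicase subunit gene MCM5 fell 1.39-fold, while RPA2, of the single-strand binding complex, rose by 0.58 on the log2 scale and BRIP1, a DNA helicase gene, rose by 0.40 (edgeR adjusted p between 1.68e-06 and 0.000269). Scaling by total counts gave 7 that rose and 16 that fell. WDR76, with the fewest counts of the 43, still had 930 over the 6 libraries, where FAM111B had 3 and FAM111A 931. After scaling, WDR76 was at 8.75 CPM in MLL4KO and 11.8 CPM in MLL4WT, and FAM111A at 15.5 CPM in MLL4KO and 3.20 CPM in MLL4WT.

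Genes of DNA-protein crosslink repair, the pathway in which FAM111A acts beside SPRTN, were called in shares near or below those of all genes. SPRTN, the replication-coupled metalloprotease of that pathway, was at 31.3 ± 1.15 CPM in MLL4KO and 28.9 ± 3.67 CPM in MLL4WT (SD, n = 3 each; log2 0.12 ± 0.09, edgeR adjusted p = 0.314). Of 30 listed genes 28 were tested, GCNA and DDI1 being too low, and 4 rose, 5 fell and 19 did not pass, or 14.3% and 17.9%, beside 19.8% and 21.6% of all tested genes, with a median of -0.02. Scaling by total counts gave 6 that rose and 2 that fell, where 3706 of all tested genes rose and 2394 fell. Leaving out MLL4WT replicate 1 gave 4 and 8 of 29 tested, where 3521 rose and 3822 fell of all 14843. Leaving out MLL4KO replicate 1, 2 or 3 gave 4 and 3 each time. Of all tested genes, 2163 to 2283 rose and 2316 to 2417 fell in those settings. TOP1, the topoisomerase whose trapped form is a substrate of this pathway, had 546, 554 and 564 CPM in MLL4KO replicates 1 to 3, against 381, 433 and 436 CPM in MLL4WT replicates 1 to 3, and rose (1.33-fold, edgeR adjusted p = 8.61e-05), and UBXN7, a cofactor of the VCP segregase, rose 1.35-fold (3.85e-05). NBN, of the MRE11 nuclease complex and on chromosome 8, fell by 0.58, TRAIP, a replisome ubiquitin ligase gene, by 0.43, and TOP3A, another topoisomerase gene, by 0.18 on the log2 scale (edgeR adjusted p between 7.41e-06 and 0.00871), the call of TOP3A being lost with total counts alone (adjusted p = 0.0561, within 0.000539 to 0.276 over 16 alternatives).

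Of 33 nuclear pore genes, all tested, 3 rose, 8 fell and 22 did not pass, or 9.09% and 24.2%, beside 19.8% and 21.6% of all tested genes, at a median of -0.05, but scaling by total counts gave 7 that rose and 5 that fell. Leaving out MLL4WT replicate 1 gave 5 and 14, where 3521 rose and 3822 fell of all 14843 genes tested then. Leaving out MLL4KO replicate 1, 2 or 3 gave 1 or 2 that rose and 5 or 6 that fell. Of all tested genes, 2163 to 2283 rose and 2316 to 2417 fell in those settings. MCM3AP, which encodes an mRNA export scaffold at the pore and lies on chromosome 21, rose 1.77-fold (edgeR adjusted p = 6.08e-08). The nuclear basket gene TPR rose 1.15-fold and the central channel gene NUP54 1.11-fold (edgeR adjusted p = 0.0318 and 0.0416). The call of TPR was lost without MLL4KO replicate 1, 2 or 3. That of NUP54 was lost in 6 of 16 alternatives. Among them were leaving out MLL4KO replicate 1 or 3 and the DESeq2 Wald test (adjusted p = 0.0780). NUP37, NUP188 and the export factor gene GLE1 fell by 0.43, 0.22 and 0.25 on the log2 scale (edgeR adjusted p between 0.000404 and 0.00466). Several of the genes named from these lists lie on chromosome 21 or 8. The 147 tested genes of chromosome 21 had a median log2 difference of 0.51, and 68.0% rose and 2.04% fell. The 485 of chromosome 8 had a median of -0.10, and 16.5% rose and 34.4% fell. NBN, DSCC1 and ATAD2 lie between bases 89933336 and 123416350 of chromosome 8, a stretch not summarised apart. The 797 of chromosome 11, on which FAM111A lies, had a median of -0.06, and 15.8% rose and 26.9% fell. Of all tested genes 19.8% rose and 21.6% fell. The part of the chromosome in any of these values was not tested.

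Other trypsin-fold and ATP-dependent proteases fell more often than they rose. Of 23 listed genes 13 were tested, and 1 rose, 7 fell and 5 did not pass, or 7.69% and 53.8%, beside 19.8% and 21.6% of all tested genes, at a median of -0.23. PRSS12, a neuronal trypsin-like protease gene, rose by 0.68 on the log2 scale (edgeR adjusted p = 1.64e-05). HTRA2, a mitochondrial serine protease gene, fell 1.53-fold, the membrane protease gene ST14 1.46-fold and the urokinase gene PLAU 1.51-fold (edgeR adjusted p between 5.85e-06 and 3.84e-05). Of the 10 too low to be tested, HTRA1 had 3 counts in all, as few as FAM111B.

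**Figure D4:**
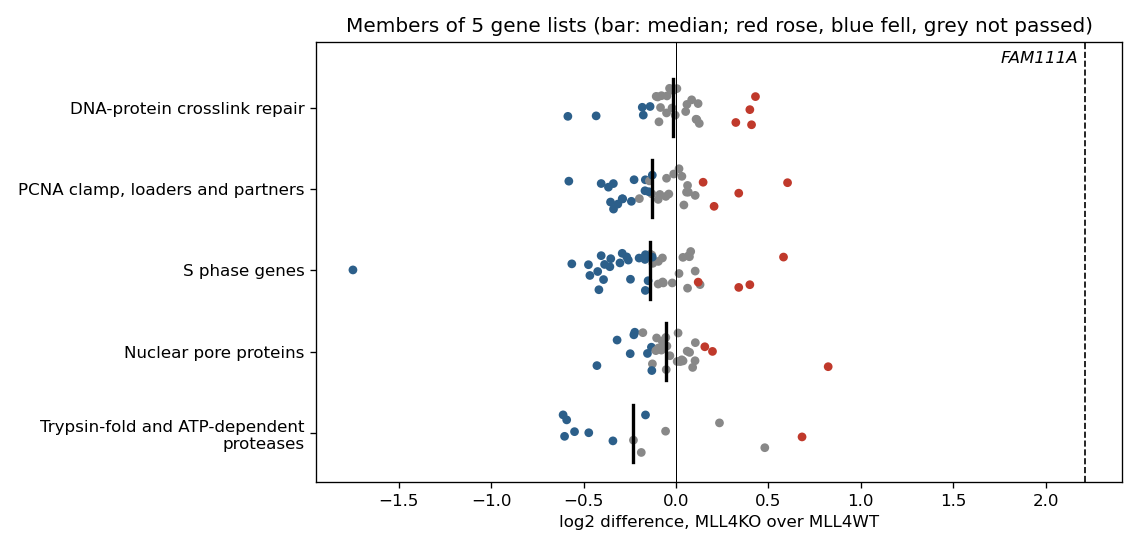
Log2 difference (MLL4KO over MLL4WT) of each tested member of 5 gene lists, with red points for those that rose, blue for those that fell, grey for those that did not pass the edgeR test, and a black bar at the median. The medians lie between -0.23 and -0.02, and no member reaches the dashed line of FAM111A at 2.21.

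The profile of FAM111A over the 6 libraries was closest to those of LTN1, SCG2, ZNF469, IGF2 and C14orf132, out of 11031 other genes with a mean of 5 CPM or more. Likeness was the Euclidean distance between log2 CPM values centred on each gene's own mean over 6 libraries, and it ran from 0.501 for LTN1 to 0.695 for C14orf132. LTN1, a ubiquitin ligase gene of ribosome quality control, lies on chromosome 21. It was at 80.7 ± 4.69 CPM in MLL4KO and 12.7 ± 1.40 CPM in MLL4WT (SD, n = 3 each). IGF2, an imprinted growth factor gene, lies on chromosome 11, as FAM111A does. Its levels were 137 ± 2.47 CPM in MLL4KO and 32.2 ± 3.24 CPM in MLL4WT (SD, n = 3 each). LTN1 and SCG2, a secretory granule gene, were lowest in MLL4WT replicate 1, as FAM111A was. The 5 genes were chosen by likeness over these same libraries, so a pattern shared with FAM111A follows from the choice. None of the 5 was from the region around FAM111A, and no such list was drawn for FAM111B, whose counts were 0 or 1.

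**Figure D5:**
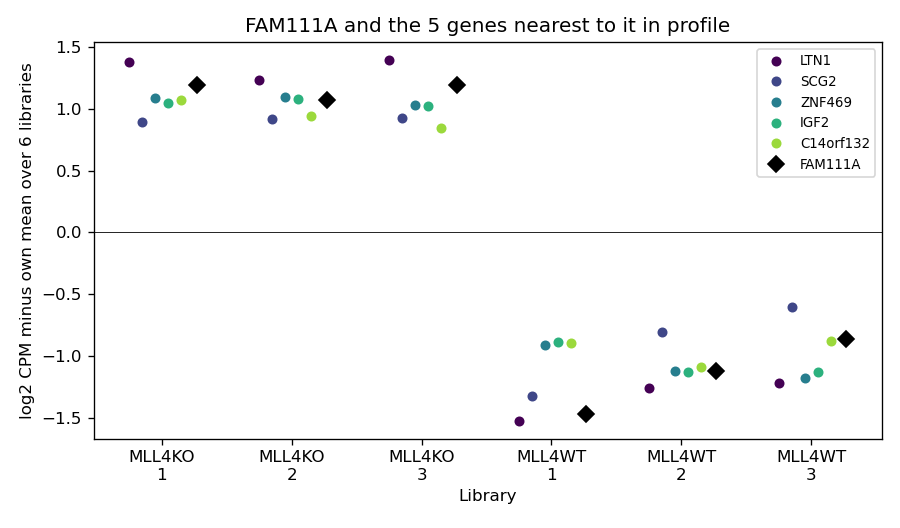
Log2 CPM of FAM111A (black diamonds) and the 5 genes nearest to it in profile, each minus its own mean over the 6 libraries, by library, with MLL4KO on the left and MLL4WT on the right. All 6 genes are above their mean in the 3 MLL4KO libraries and below it in the 3 MLL4WT libraries. For the 5 this follows from their choice by likeness to FAM111A.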

How the data were processed

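Poly(A) RNA of HCT116 cells was sequenced, and the labels' protocols do not describe the library kit as keeping strand. The values deposited by the authors are estimated counts per gene, given as whole numbers and not normalised. The submitters' processing notes list Salmon 1.8.0, DESeq2 1.44.0 and the build hg38 without saying what each was used for, with the annotation not given in the sources used here. All 6 columns were matched to samples by library name, and groups came from the sample titles.

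Of 59715 genes, 40695 were given a symbol and 56227 coordinates (GENCODE release 29, GRCh38, the build also called hg38). Genes were kept with filterByExpr, scaled by TMM and compared by the edgeR 4.0.16 quasi-likelihood test in R 4.3.3, MLL4KO against MLL4WT, with robust dispersions and without covariates, which leaves 4 residual degrees of freedom. All p-values were Benjamini-Hochberg adjusted over all 14543 tested genes at a threshold of 0.05, and "rose" and "fell" are used of genes past it. The procedure was tested on simulated counts. CPM use the same scaling, and SEs come from the F statistic. The depth sets the precision, 3 counts being 0.446 CPM in the shallowest library.

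FAM111A, FAM111B and all gene lists were chosen with earlier results of these data known. Named genes are the pair, KMT2D, tested neighbours within 1 Mb, at most 3 risen and 3 fallen list members with the smallest adjusted p, PCNA, RFC1, SPRTN, and the 5 genes nearest to FAM111A in profile. GLYATL1, GLYATL1P1, GCNA, DDI1, HTRA1 and WDR76, with the markers, fall outside that rule and were named after their values were seen. Alternatives were other scalings, no filter and a filter of 1 CPM, the DESeq2 1.42.0 Wald test, limma-voom (limma 3.58.1), the replicate number as a block, the sequencing code as a term, thinning to the shallowest library and leaving out each library.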

Additional observations from a re-analysis of the deposited data

How the results depend on the processing

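The log2 difference of FAM111A was between 2.14 and 2.28 under the other scalings, filters, tests and terms, between 2.13 and 2.39 without each library in turn, and 2.66 with counts thinned to the shallowest library. The replicate numbers did not pair the libraries, with correlations of their deviations of 0.02, 0.03 and -0.01, and with the replicate block the difference was 2.23 and 5713 genes were called, beside 6021 without it; DTX4 (adjusted p = 0.0738) and NUP54 (adjusted p = 0.0622) did not pass there. After thinning, which leaves fewer counts, 3719 of 13248 tested genes were called, with 7 of 33 nuclear pore genes and 1 of 7 neighbours. With the sequencing code term 7455 of 14543 tested genes were called, with 19 of 33 nuclear pore genes and 5 of 12 neighbours. Leaving out 1 library gave between 4479 and 7343 calls in all, 6 to 19 nuclear pore genes, 12 to 22 PCNA genes, 18 to 31 S phase genes, 7 to 12 crosslink repair genes, 7 to 9 proteases and 2 to 5 neighbours, with the higher ends without MLL4WT replicate 1; the cause was not tested. No named gene changed sign past the threshold. No value could be had for FAM111B or for the change in the FAM111A to FAM111B ratio, since FAM111B had at most 1 count in a library.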
